A study of Mus musculus with 13 samples.

Results

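The 10 genes described here encode 8 laminin chains (*Lama1*, *Lama2*, *Lama3*, *Lama4*, *Lama5*, *Lamb1*, *Lamb2* and *Lamc1*) and both nidogens (*Nid1* and *Nid2*). They were chosen by name, and all 10 were present among the 35967 gene symbols of the table. Laminins are cross-shaped proteins of 1 alpha, 1 beta and 1 gamma chain that assemble into a sheet in every basement membrane. The mature glomerular basement membrane, made jointly by podocytes and endothelial cells, is built on laminin with the α5, β2 and γ1 chains, which takes over from forms with α1 and β1 chains during development. Nidogens bind the γ1 chain and tie the laminin sheet to the collagen IV sheet.

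Glomeruli came from wild-type Balb/c mice that had received 2.0 mg of rabbit IgG intraperitoneally, and 1 library of bulk RNA was sequenced per mouse. Membranous nephropathy (MN) was modelled with rabbit IgG against THSD7A, a podocyte protein that is an autoantigen of human MN, and glomeruli were collected at day 1 (n = 4) or day 5 (n = 4). The control group (n = 5) received preimmune rabbit IgG, with the controls of both days combined and no day given for each mouse. Only male mice entered the MN model, in which the antibody is transferred and not made by the mouse, and the glomeruli were isolated with magnetic beads perfused into the kidney.

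The values are TPM, relative transcript abundances scaled to a fixed total per library and corrected for transcript length, so that levels of different genes can be compared within a library. The unit keeps no record of sequencing depth, so the depth behind each value is unknown and only the spread between mice was available as error. TPM per library summed to between 989774 and 996064, and Spearman correlations between libraries over the 14322 tested genes lay between 0.971 and 0.988. The 6 podocyte markers summed to 6481 to 8763 TPM in control libraries, 6864 to 8708 at day 1 and 7199 to 7510 at day 5, and the 6 glomerular endothelial markers to 4516 to 5667, 4387 to 5218 and 5304 to 5640. Tubular RNA was present too, with 6 proximal tubule markers at a sum of 2104 to 7856 TPM in control, 3671 to 6891 at day 1 and 2706 to 3278 at day 5. Control replicate 5 stood apart with the 7856 TPM, where the other control libraries had at most 3593 TPM, and it had the lowest control TPM for all 9 of the tested members. The 5 markers of the loop, distal tubule and collecting duct summed to 255 to 515, 493 to 896 and 345 to 477 TPM, and the 6 leukocyte markers to 25.3 to 44.0, 28.9 to 51.5 and 24.7 to 48.0 TPM. Differences below were tested on log2(scaled TPM + 0.5) with limma, a linear model with a moderated variance, and every adjusted p below is limma's, after Benjamini-Hochberg adjustment across all 14322 tested genes unless a permutation test is named. A gene was called at an adjusted p under 0.05 together with an absolute log2 fold change above 0.5.

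In control glomeruli the α5 and β2 transcripts of the adult laminin were the most abundant of the alpha and beta chains, and the β2 chain stood above all other members. *Lamb2*, which encodes β2, had 345 ± 21.1 TPM (SD, n = 5), followed by *Nid1* with 154 ± 20.8 and *Lama5*, which encodes α5, with 91.7 ± 6.20. *Lamb1* (β1) had 81.0 ± 12.4 TPM, *Lamc1* (γ1) 69.6 ± 4.66 and *Nid2* 60.5 ± 8.34. The ranges of neighbouring genes in this order overlapped from *Lama5* down to *Nid2*, whereas *Lamb2* lay above *Nid1*, and *Nid1* above *Lama5*, in every control library.

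The other alpha chains were lower. *Lama4*, which encodes the α4 chain of endothelial basement membranes, had 18.3 ± 3.47 TPM and *Lama3* (α3) 15.5 ± 2.56, and their ranges overlapped. *Lama2*, which encodes the α2 chain found in muscle and in the mesangial matrix, had 4.55 ± 0.961 TPM. *Lama1*, which encodes the α1 chain of early basement membranes, was near the floor of the table with 0.272 ± 0.133 TPM.

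Members were called against control at day 5 only. *Nid2* was 1.87-fold and *Lamc1* 1.49-fold higher in day 5 MN than in control glomeruli, and these were the 2 members called of 9 tested. *Nid1* was 1.32-fold higher with an adjusted p under 0.05 but stayed below the fold change threshold. The dominant chains *Lama5* and *Lamb2* did not pass. Over all tested genes, 3.21% were called at day 5, and 2.42% were called higher. At day 1 no member was called.

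**Figure D1:**
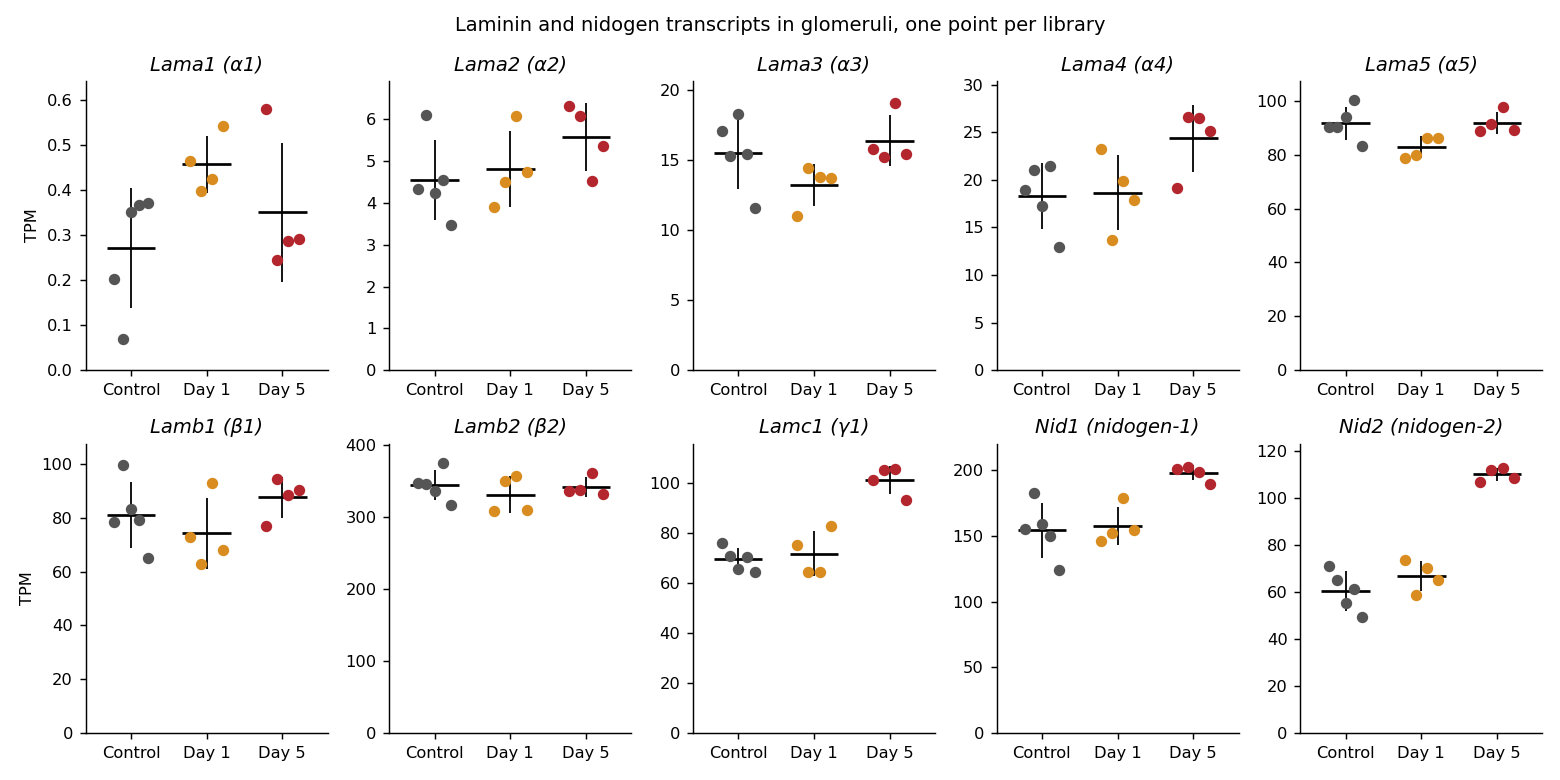
TPM of the 10 genes (vertical axes, each starting at 0) in control, day 1 MN and day 5 MN glomeruli, with 1 point per library, the mean as a horizontal line and the SD as a vertical line. For Lamc1, Nid1 and Nid2, all 4 day 5 points lie above all control points, and for Lama5 and Lamb2 the day 5 and control points overlap.

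*Lamc1* encodes γ1, the gamma chain of the α5, β2 and γ1 laminin and of most other laminins, so that a single gene supplies the gamma chain for many of these trimers. It lies on chromosome 1 of GRCm39 from 153094597 to 153208774 on the minus strand. The short stretch through which γ1 binds nidogen is encoded in exon 14 of its 28 exons. It is shown here because this contact joins the products of the 3 genes that changed most by adjusted p, and among the 10 genes only *Lamc1* holds it. The 7 residues of the site, at positions 831 to 837 of the chain, are encoded by the bases in capitals (chr1:153119107-153119127), within the following stretch of coding sequence (chr1:153119074-153119160, GRCm39, minus strand, read 5′ to 3′).
Lamc1 nidogen-binding site: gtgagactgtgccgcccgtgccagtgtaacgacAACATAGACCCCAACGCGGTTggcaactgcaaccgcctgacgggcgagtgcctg

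*Lamc1* had 76.1, 71.0, 65.6, 70.5 and 64.5 TPM in the control libraries, 75.4, 64.6, 64.4 and 83.1 TPM at day 1, and 101, 105, 106 and 93.3 TPM at day 5. Every day 5 library was above every control and every day 1 library, whereas day 1 and control libraries overlapped. Against control, the day 5 log2 fold change was 0.58 (SE 0.081, 95% interval 0.40 to 0.75, limma, adjusted p = 8.2e-04). The day 1 value was 0.086 (interval -0.088 to 0.26, limma, adjusted p = 0.694). No annotated gene shares exonic bases with *Lamc1*. In these bulk samples, more cells that express a gene and more of its RNA per cell cannot be told apart, nor can fewer cells and less RNA.

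*Nid2* encodes nidogen-2 and lies on chromosome 14 from 19801298 to 19861855 on the plus strand, in 21 exons. Its TPM were 71.1, 65.0, 55.6, 61.2 and 49.5 in control libraries, 73.6, 58.8, 70.1 and 65.3 at day 1, and 107, 112, 113 and 109 at day 5. Day 5 libraries were all far above both other groups, and they lay close together, with an SD of 2.89 TPM. Its day 5 log2 fold change was 0.91 (SE 0.086, interval 0.72 to 1.09, limma, adjusted p = 5.0e-05). Its day 1 log2 fold change was 0.20, with an unadjusted p of 0.039 and an adjusted p of 0.378 (limma). This was the only one of 9 members with an unadjusted p under 0.05 at day 1, against 12.6% of all tested genes. Exons of *Rtraf* on the opposite strand cover 11.8% of the exonic bases of *Nid2*, and no source used here says whether strand entered the quantification. *Rtraf* had 69.3 to 78.0 TPM in control and 72.2 to 80.5 TPM at day 5, with a log2 fold change of 0.076 (limma, adjusted p = 0.613).

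*Nid1* encodes nidogen-1, the more abundant nidogen in these glomeruli, and lies on chromosome 13 from 13612071 to 13686860 on the plus strand, in 20 exons. It had 155, 182, 159, 150.0 and 124 TPM in control libraries, 146, 152, 179 and 154 TPM at day 1, and 201, 203, 199 and 189.7 TPM at day 5. The day 5 libraries were above all others, and day 1 and control libraries overlapped. Against control it differed by a log2 fold change of 0.41 at day 5 (SE 0.083, interval 0.23 to 0.58, limma, adjusted p = 0.0103) and of 0.086 at day 1 (limma, adjusted p = 0.704). Non-overlapping groups with higher values at day 5 were found for 3 of the 9 tested members, *Lamc1*, *Nid1* and *Nid2*, and for 5.07% of all tested genes. These 3 members also had an adjusted p under 0.05, as did 6.12% of all tested genes in either direction.

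**Figure D2:**
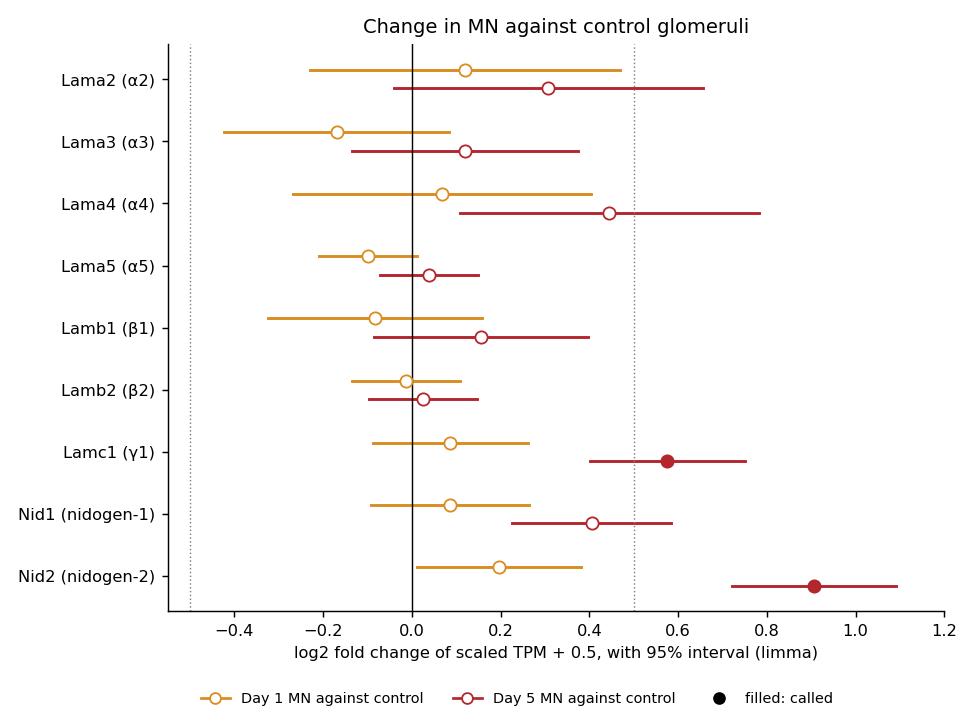
Log2 fold change of scaled TPM + 0.5 (horizontal axis) with its 95% interval from limma for the 9 tested genes, at day 1 MN (orange) and day 5 MN (red) against the same control libraries; filled points were called and dotted lines mark the fold change threshold of 0.5. Only Lamc1 (0.58) and Nid2 (0.91) at day 5 are filled, and the day 5 interval of Nid1 (0.23 to 0.58) crosses the threshold but not 0.

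The alpha chains did not pass at either day. *Lama5* lies on chromosome 2 from 179818166 to 179867712 on the minus strand. It had 90.4, 90.4, 94.1, 100.2 and 83.2 TPM in control libraries, 78.7, 79.8, 86.3 and 86.2 TPM at day 1, and 88.9, 91.4, 97.7 and 89.3 TPM at day 5. Control and day 5 libraries overlapped fully, and the difference at day 5 was 0.039 on the log2 scale with an interval of -0.071 to 0.15 (limma, adjusted p = 0.75). The day 1 difference was -0.099 with an interval of -0.21 to 0.011 (limma, adjusted p = 0.441). Changes of *Lama5* as large as that of *Lamc1* lie outside both intervals.

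*Lama4*, on chromosome 10 from 38841141 to 38998403 on the plus strand, had 18.9, 21.0, 17.2, 21.5 and 12.9 TPM in control libraries, 23.2, 13.7, 19.8 and 17.9 TPM at day 1, and 19.1, 26.6, 26.5 and 25.2 TPM at day 5. At day 5, 3 libraries were above all controls and the fourth was within their range. The log2 fold change was 0.44 with a wide interval of 0.11 to 0.78, and it did not pass the test (limma, unadjusted p = 0.0135, adjusted p = 0.122). Genes on the opposite strand, *Fam229b* among them, share 12.9% of its exonic bases.

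*Lama2*, on chromosome 10 from 26856032 to 27495754 on the minus strand, ranged from 3.48 to 6.10 TPM in control, 3.91 to 6.08 TPM at day 1 and 4.51 to 6.31 TPM at day 5. *Lama3* ranged from 11.5 to 18.3, 11.0 to 14.4 and 15.2 to 19.1 TPM. Neither separated MN from control libraries. Non-coding RNA on the opposite strand shares 7.19% of the exonic bases of *Lama2*. The log2 fold changes at day 5 were 0.31 for *Lama2* (limma, adjusted p = 0.316) and 0.12 for *Lama3* (limma, adjusted p = 0.647).

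*Lama1*, on chromosome 17 from 68004223 to 68129642 on the plus strand, did not reach 1 TPM in any library and was left out of the fit. It had 0.202, 0.0697, 0.350, 0.365 and 0.370 TPM in control libraries, 0.464, 0.398, 0.424 and 0.543 TPM at day 1, and 0.580, 0.244, 0.287 and 0.290 TPM at day 5. All 4 day 1 libraries were above all controls, by as little as 0.398 against 0.370 TPM, and day 5 overlapped with control. In a fit with no filter on low TPM, over 23350 genes, the day 1 log2 fold change was 0.34 (limma, unadjusted p = 0.0452, adjusted p = 0.518). Among the genes tested in the filtered fit, day 1 libraries lay above all controls for 0.908%. The proximal tubule markers given above also had higher means at day 1, with all 6 log2 fold changes above 0 and a median of 0.73, although none was called (limma, 5 of 6 at an unadjusted p under 0.05). All 5 markers of the loop, distal tubule and collecting duct were above 0 as well, with a median of 0.61 and none called (limma, 3 at an unadjusted p under 0.05), and *Calb1* (1.49) and *Slc12a3* (1.40) lay above all controls in every day 1 library. The part of tubular RNA in the *Lama1* values was not tested.

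Neither beta chain passed the test. *Lamb2*, on chromosome 9 from 108356935 to 108367729 on the plus strand, had 348, 346, 336, 376 and 317 TPM in control libraries, 308, 349, 357 and 309 TPM at day 1, and 336, 338, 362 and 332 TPM at day 5. All 3 groups overlapped. The interval of its log2 fold change was -0.14 to 0.11 at day 1 and -0.097 to 0.15 at day 5 (limma, adjusted p = 0.956 and 0.866), and the sign at day 5 depended on the scaling. *Lamb1*, on chromosome 12 from 31315030 to 31379658 on the plus strand, varied more, from 65.0 to 99.5 TPM in control, 63.0 to 93.1 TPM at day 1 and 77.0 to 94.5 TPM at day 5. *Dld* and a non-coding RNA on the opposite strand share 7.62% of its exonic bases. Against control, the day 5 difference was 0.16 on the log2 scale, with an interval of -0.085 to 0.40 (limma, adjusted p = 0.491).

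Taking the 9 tested members as a group, all 9 had a log2 fold change above 0 at day 5, as had 49.3% of all tested genes. Their median was 0.31, beside a median of -0.0032 over all tested genes. Under the 2 other scalings *Lamb2* lay below 0 (-0.010 unscaled and -0.046 after quantile normalization). The members were also not independent of each other, with r as high as 0.93 between *Lamc1* and *Nid2*. Without control replicate 5, all 9 were still above 0, with a median of 0.24. In that fit the log2 fold changes of *Lamc1*, *Nid1* and *Nid2* were 0.56, 0.34 and 0.85 (limma, adjusted p = 0.00277, 0.016 and 9.0e-05), and the part of its tubular RNA in the control values was not tested. At day 1, 5 were above and 4 below 0, where 49.2% of all tested genes were above, with a median of 0.068 beside -0.0029 over all genes, and 0 of 9 were called, as were 0.0908% of all tested genes. Without control replicate 5, 4 were above and 5 below 0 at day 1, the median was -0.028, and limma called 0, with 2 at an unadjusted p under 0.05. Both comparisons use the same 5 control libraries.

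Day 5 and day 1 MN libraries were therefore also compared directly. *Nid2* was 1.63-fold higher at day 5 than at day 1 (log2 fold change 0.71, SE 0.090, limma, adjusted p = 5.3e-04) and was the only member called, where 1.81% of all tested genes were called and 1.41% were called higher. With a score of tubular markers as a covariate, its value was 0.53 and the call was lost (limma, adjusted p = 0.052). All 6 proximal tubule markers were lower at day 5 than at day 1 (median log2 fold change -0.77, limma, 0 called). So were all 5 markers of the loop, distal tubule and collecting duct (median -1.22, limma, 2 called). *Lamc1* was 1.40-fold higher, and its log2 fold change of 0.49 fell short of the threshold (SE 0.085, limma, adjusted p = 0.00654). In 9 of the 10 alternatives described below, its adjusted p stayed under 0.05 (limma, highest 0.0962). An adjusted p under 0.05 was reached by these 2 members and by 2.38% of all tested genes. *Nid1* had a log2 fold change of 0.32 that did not pass (limma, adjusted p = 0.0804). Without control replicate 5, the value for *Nid1* was again 0.32, with an adjusted p of 0.0283 (limma), still under the fold change threshold. That was the lowest adjusted p when each of the 13 libraries was omitted in turn (limma, highest 0.214, 2 below 0.05). Across the 10 alternatives, *Nid1* ranged from 0.049 to 0.33, and 2 of them gave an adjusted p below 0.05 (limma, highest 0.921). The low end, 0.049, came from the fit that adjusted for tubular markers. In that fit 2 of 9 members had an unadjusted p under 0.05 between the days (limma). *Lama3*, *Lama4* and *Lama5* had unadjusted p-values of 0.0364, 0.039 and 0.023 and adjusted p-values of 0.282, 0.289 and 0.226 (limma), with log2 fold changes of 0.29, 0.38 and 0.14. In all, 6 of 9 members and 15.5% of all tested genes had an unadjusted p under 0.05, and day 5 libraries lay above all day 1 libraries for 5 of 9 members (*Lama3*, *Lama5*, *Lamc1*, *Nid1* and *Nid2*) and 6.12% of all tested genes.

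Since TPM is per length, shares of chains within a family could be described from the same libraries. *Lama5* made up 70.5% ± 2.52 (SD, n = 5) of the alpha chain TPM in control glomeruli, 69.0% ± 1.67 (n = 4) at day 1 and 66.3% ± 1.16 (n = 4) at day 5. *Lama4* held 14.0% ± 1.73, 15.5% ± 3.19 and 17.5% ± 2.00, and *Lama3* 11.9% ± 1.41, 11.0% ± 1.38 and 11.8% ± 0.849. *Lama2* held 3.48%, 4.0% and 4.05% on average, and *Lama1* at most 0.443% in any library. The α5 share at day 5, 65.5% to 68.0%, met the lower end of the control range of 68.0% to 74.6%.

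Of the beta chain TPM, *Lamb2* held 79.4% ± 2.62 in control, 80.6% ± 2.85 at day 1 and 77.4% ± 2.01 at day 5, and *Lamb1* 18.6% ± 2.04, 18.0% ± 2.12 and 19.8% ± 1.39. The remainder was *Lamb3*, which encodes the β3 chain of epithelial laminins. Shares of the alpha and beta chains thus overlapped between control and day 5, or met at the edge for *Lama5*. Family sums are given as a description, with a mean nidogen sum of 215 ± 26.8 TPM in control and 308 ± 7.06 at day 5, whereas the alpha chain sum was 130.3 ± 11.3 and 138 ± 7.34 and the beta chain sum 434 ± 27.2 and 442 ± 20.6.

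Ratios between genes of the same family (alpha chains, beta chains or nidogens) were tested within libraries, with exact two-sided permutation tests adjusted over 12 tests. The Nid1/Nid2 ratio was 2.18, 2.80, 2.86, 2.45 and 2.51 in control libraries, 1.98, 2.59, 2.55 and 2.37 at day 1, and 1.88, 1.81, 1.76 and 1.74 at day 5. All day 5 ratios lay below all others. The mean fell from 2.56 ± 0.279 to 1.80 ± 0.0617, a log2 difference of -0.50 (exact permutation p = 0.0159, adjusted p = 0.0952), and the adjusted p did not pass. With 5 against 4 libraries, the smallest p possible is 0.00794, which after adjustment over 12 tests is not under 0.05 for a single ratio, so that these tests could hardly pass. Against day 1 the log2 difference was -0.39 (exact permutation p = 0.0286, the smallest that 70 splits allow, adjusted p = 0.114).

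The ratios between laminin chains of the same family did not pass either. Lamb1/Lamb2 was 0.235 ± 0.0337 in control and 0.256 ± 0.0238 at day 5 (exact permutation p = 0.286, adjusted p = 0.429). Lama2/Lama5 was 0.0496 ± 0.0102 and 0.0609 ± 0.0108 (exact permutation p = 0.135, adjusted p = 0.324). Lama1/Lama5, at 0.00297 ± 0.00147 in control and 0.00552 ± 0.00068 at day 1, differed by 0.44 on the log2 scale with the pseudocount (exact permutation p = 0.0159, adjusted p = 0.0952), with all day 1 libraries above all controls.

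**Figure D3:**
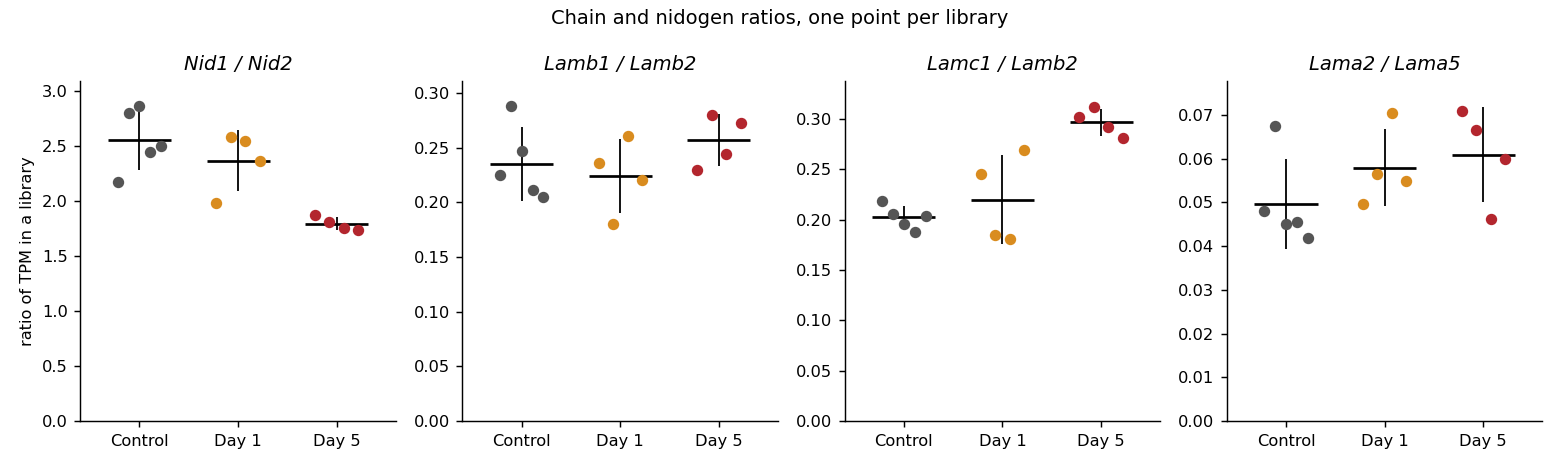
Ratio of TPM of 2 genes within a library (vertical axes from 0) for Nid1/Nid2, Lamb1/Lamb2, Lamc1/Lamb2 and Lama2/Lama5, with 1 point per library, the mean as a horizontal line and the SD as a vertical line. Day 5 points lie below the rest for Nid1/Nid2 (1.74 to 1.88) and above the rest for Lamc1/Lamb2 (0.281 to 0.312), and overlap with control for the other ratios.

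The γ1 chain was also set against its usual partners, a description added after the values were seen and given without a test. The Lamc1/Lamb2 ratio was 0.188 to 0.219 in control, 0.180 to 0.269 at day 1 and 0.281 to 0.312 at day 5. Lamc1/Lama5 was 0.697 to 0.842, 0.746 to 0.964 and 1.05 to 1.15. In both ratios the day 5 libraries lay above all others, so that *Lamc1* moved from below to above *Lama5* in TPM at day 5.

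Collagen IV, the network to which nidogens link laminin, held 3 called genes of 5 tested at day 5, where 3.21% of all tested genes were called. The median of the 5 log2 fold changes was 0.71. *Col4a1* and *Col4a2*, which encode the α1 and α2 chains found in all basement membranes, had log2 fold changes of 0.85 each (limma, adjusted p = 0.0191 and 0.0403). *Col4a1* had 307, 287, 369.9, 304 and 187 TPM in control libraries and 526, 612, 470.0 and 411 TPM at day 5, with no overlap. *Col4a5*, 1 of the 3 chains of the mature glomerular collagen network, was higher by 0.71 (limma, adjusted p = 0.00984), from 34.4 to 55.8 TPM in control to 72.9 to 85.6 TPM at day 5. Its partner chains *Col4a3* and *Col4a4* had log2 fold changes of 0.031 and 0.016 (limma, adjusted p = 0.938 and 0.971). Control replicate 5 had the lowest control TPM for *Col4a1* (187) and *Col4a2* (112), and its part in their values was not tested. Between day 5 and day 1 MN none of the 5 was called. The adjusted p was 0.0997 for *Col4a1*, 0.151 for *Col4a2* and 0.0707 for *Col4a5* (limma).

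Of 18 other partners of the laminin network, 14 were tested and 1 was called at day 5. This was *Sparc*, which encodes a collagen-binding matricellular protein and had the highest TPM of the list. It had 1423, 1328, 1348, 1370.4 and 1299 TPM in control libraries, 1377, 1387, 1406 and 1409 TPM at day 1, and 2159, 2079.8, 2078 and 1924 TPM at day 5. Its log2 fold change was 0.64 (SE 0.055, limma, adjusted p = 3.0e-05), between those of *Lamc1* and *Nid2*. *Hspg2*, which encodes the heparan sulfate proteoglycan perlecan, and *Pxdn*, which encodes the collagen IV crosslinking enzyme peroxidasin, had an adjusted p under 0.05 (limma, 0.0135 and 0.0108) with log2 fold changes of 0.39 and 0.32, under the threshold. These 2 genes were singled out after their values were seen. Control replicate 5 had the lowest control TPM for *Hspg2*, 108 beside 143 to 155 in the other controls. Its part in the *Hspg2* value was not tested. The median of the 14 genes was 0.27.

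None of 17 laminin receptors and linkers was called at day 5 by limma, with 6 at an unadjusted p under 0.05 and a median of 0.11 over the 17 log2 fold changes. Of all tested genes 20.1% had an unadjusted p under 0.05 at day 5, as had 4 of the 9 members. *Bcam*, which encodes a Lutheran-type receptor for the α5 chain and had the highest TPM of the list, had 846 ± 61.9 TPM in control and 810.0 ± 36.4 TPM at day 5 (log2 fold change -0.025, limma, adjusted p = 0.873). *Dag1*, which encodes dystroglycan, and *Itgb1*, which encodes the integrin β1 chain, had an adjusted p under 0.05 with log2 fold changes under the threshold (0.46 and 0.36, limma, adjusted p = 0.00357 and 0.00787), and were also singled out after their values were seen. So was *Itga2*, which encodes the integrin α2 chain, with a log2 fold change of 0.64 that did not pass (limma, adjusted p = 0.0607). *Itga3*, which encodes the α3 chain of the main podocyte laminin receptor, had a log2 fold change of 0.11 (limma, adjusted p = 0.413). *Lamb3* and *Lamc3*, which encode the β3 and γ3 laminin chains, were tested and not called, and *Lamb3* ranged widely within control libraries, from 4.08 to 14.7 TPM. At day 1 no gene of these lists was called, with 0 at an unadjusted p under 0.05 (limma).

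**Figure D4:**
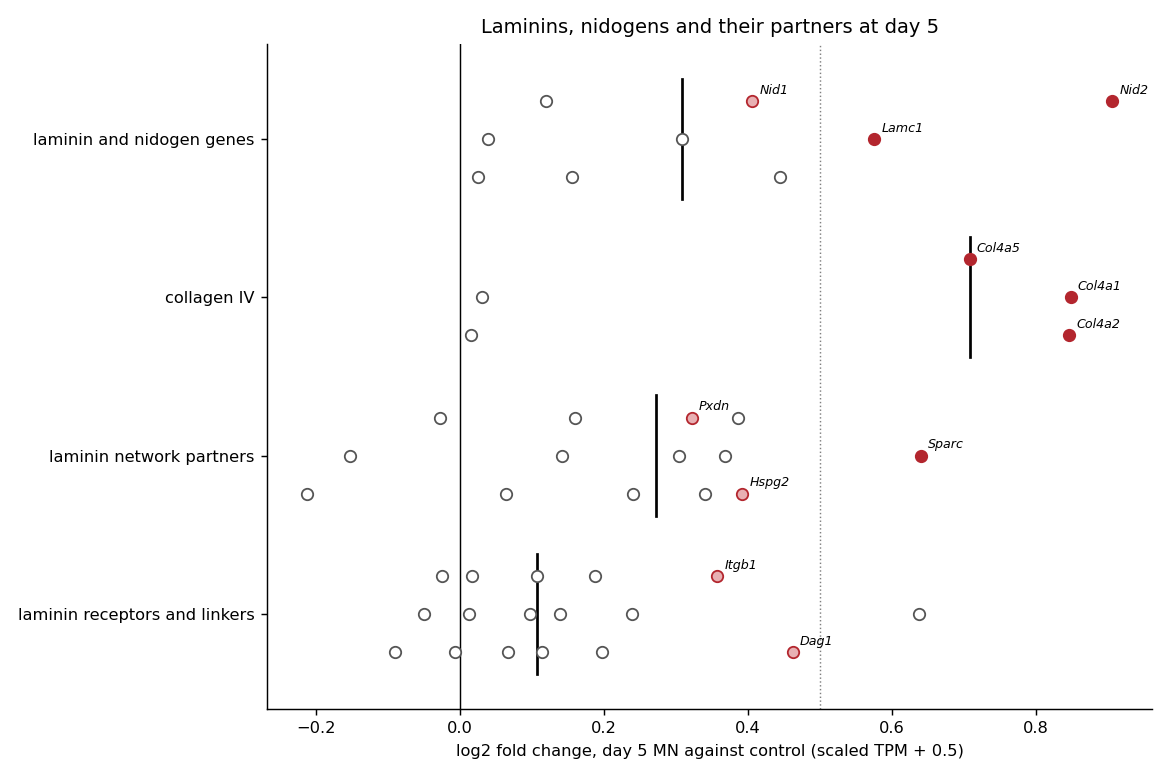
Log2 fold change of day 5 MN against control (horizontal axis, scaled TPM + 0.5) for each tested gene of 4 lists (vertical axis, with points spread within a list for legibility); filled points were called, pale points had an adjusted p under 0.05 only, black lines are list medians and the dotted line marks 0.5. Filled points are Nid2, Lamc1, Col4a1, Col4a2, Col4a5 and Sparc, and the receptor list has none.

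Single markers of other cell types were also called at day 5. The 3 parietal epithelial markers summed to 41.4 to 49.0 TPM in control, 49.9 to 54.1 TPM at day 1 and 57.5 to 62.3 TPM at day 5, and 1 of them, *Cldn1*, was called (log2 fold change 1.08, limma, adjusted p = 0.0036). *Akap12*, another of them, had an adjusted p under 0.05 below the fold change threshold (0.29, limma, adjusted p = 0.0404). The 6 mesangial and contractile markers summed to 1082 to 1699, 1462 to 1621 and 1635 to 1931 TPM, so that control and day 5 overlapped. Of them *Tagln* alone was called (1.30, limma, adjusted p = 6.4e-04). A log2 fold change above 0 was found for 5 of the 6, with 2 at an unadjusted p under 0.05 (limma), *Tagln* and *Acta2* (0.55, limma, adjusted p = 0.14). Only *Pdgfrb* lay below 0 (-0.17, limma, adjusted p = 0.528). Of the 6 podocyte and the 6 endothelial markers, none was called at day 5 by limma, with 2 of each list at an unadjusted p under 0.05. In each, 1 gene had an adjusted p under 0.05 below the fold change threshold, the podocyte actin-binding gene *Synpo* (log2 fold change -0.46, limma, adjusted p = 0.00197) and the endothelial gene *Emcn* (0.29, limma, adjusted p = 0.0127). All 6 endothelial markers had a log2 fold change above 0. So had all 4 tested leukocyte markers, with a median of 0.15, a highest value of 0.71 and none called (limma, 1 at an unadjusted p under 0.05). *Ptprc*, 1 of these 4, had a mean of 2.40 TPM in control and 4.03 TPM at day 5. The part of these cell types in the values of *Lamc1*, *Nid1* and *Nid2* was not tested. Control replicate 5 had the lowest control TPM for *Akap12* (27.2), *Emcn* (1151) and *Tagln* (91.1). Its part in their values was not tested.

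Patterns over the 13 libraries were compared by Pearson's r of log2 values, as a description in which libraries share their group. *Nid2* and *Lamc1* were the pair of members most alike (r = 0.93), followed by *Nid1* and *Nid2* (0.87) and *Lama2* and *Nid1* (0.84). After group means were removed, these values were 0.47, 0.42 and 0.88, so that the likeness of *Lama2* and *Nid1* was held within groups. *Lamb2* and *Lamc1*, which encode chains of the same trimer, had an r of 0.03, and of -0.37 within groups.

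Outside the members, the genes nearest to *Nid2* were *Tubb5*, *Nek2* and *Selenoh* (r = 0.97, 0.97 and 0.96), of which *Nek2* encodes a mitotic kinase and *Tubb5* a tubulin. Those nearest to *Lamc1* were *Pbk*, *Pimreg* and *Pxdn* (r = 0.96, 0.96 and 0.95), the first encoding a mitotic kinase and the last the crosslinking enzyme above. *Nid1* was nearest to *Marcks*, *Zyx* and *Prim2* (r = 0.94, 0.93 and 0.93). Every one of these 9 genes had a higher mean at day 5, with log2 fold changes between 0.32 for *Pxdn* and 3.51 for *Pimreg*. Since r included the differences between groups, a rise at day 5 was part of how these genes were chosen.

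For the other members, *Lama4* was nearest to *Adgrl2*, *Cyth4* and *Plk2* (r = 0.97, 0.93 and 0.93), *Lama2* to *Dok4*, *Slc25a24* and *Gpr27* (0.89, 0.88 and 0.88), and *Lama3* to *Rapgef1*, *Dsel* and *Mcph1* (0.85, 0.85 and 0.84). *Lama5* was nearest to *Cc2d2a*, *Stc1* and *Trim2* (0.87, 0.86 and 0.84), *Lamb1* to *Hoxc10*, *Nedd4* and *Scarb1* (0.89, 0.89 and 0.88), and *Lamb2* to *Rapgef4*, *Stat2* and *Exoc5* (0.81, 0.80 and 0.80). None of these 18 genes had an adjusted p under 0.05 at day 5 (limma), and the lowest was 0.0946, for *Adgrl2*. They were chosen for likeness to members that did not pass at day 5, so this is a description only.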

How the data were processed

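Glomerular RNA of 13 mice was sequenced. Per the labels and the study's methods, the authors checked reads with FastQC 0.11.9, trimmed them with Trimmomatic 0.39, quantified them with kallisto 0.46.2 against GRCm39, and deposited TPM, 1 value per gene symbol and library. The authors tested counts with DESeq2, which were not used here, so depth was unknown.

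Groups came from the sample labels. Each library was rescaled by its median ratio to the geometric mean over 15772 genes with no zero (factors 0.955 to 1.04) and put on a log2 scale with a pseudocount of 0.5. The filter kept 14322 of 35967 genes, those that reached 1 TPM in 4 or more libraries. All 3 groups entered 1 limma fit (version 3.58.1, R 4.3.3, eBayes with a trend), with Benjamini-Hochberg adjustment per contrast. The deposited TPM are relative, so a change in total RNA cannot be seen, and fold changes of low genes are understated. The procedure was tested on simulated data. Ratios were tested by exact permutation.

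The members, lists and thresholds were chosen with earlier results of these data known. Named were all 10 members, called genes and the most abundant gene of each list, and the 3 genes with the highest r for each tested member, with exceptions stated. The other laminin chains (a gene among them is not reported here), the partners, collagen IV, the receptors and the cell type markers were written from general knowledge. Same-numbered libraries of different groups did not deviate together (r = -0.06 to 0.09), so the numbers were not used as pairs. Loci come from GENCODE annotation of GRCm39, and the coding stretch from the GENCODE transcript sequence, placed on the genome through that annotation. Coordinates and sequence of *Lama3* are not reported here. Plots were drawn with matplotlib 3.10.9. Alternatives were 2 other pseudocounts, 2 other scalings, 2 other filters, no trend, only the compared groups, a replicate block, a tubular marker covariate and each library left out.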

Additional observations from a re-analysis of the deposited data

Results flagged for a closer look

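In day 5 MN libraries, *Lama1* had 0.580 TPM in replicate 1, apart from the 0.244 to 0.290 TPM of the other 3 libraries. *Lama3* had 19.1 TPM in day 5 replicate 3, apart from 15.2 to 15.8 TPM in the other 3. Each stood out by Dixon's test of the gap over the range of its group, for which 30 groups were examined, and chance gives about 1 in 20.

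Both MN groups were compared with the same controls, and the difference between them was tested directly. *Nid2* (log2 fold change 0.71) and *Lamc1* (0.49) had an adjusted p under 0.05 (limma) between day 5 and day 1 MN libraries, higher at day 5. Of the 10 alternatives, each kept this in 9 (limma, highest adjusted p 0.052 for *Nid2* and 0.0962 for *Lamc1*).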

How the results depend on the processing

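*Lamc1* and *Nid2* were called at day 5 in all 13 fits that left out 1 library (log2 fold changes 0.55 to 0.62 and 0.85 to 0.96) and in all 10 other settings. *Nid1* had an adjusted p under 0.05 in all of these and was called in none. Over 27 log2 fold changes of members and all settings, 603 of 621 values kept their direction and their side of the threshold, 14 changed sign, 3 became called and 1 lost its call. For the changes below the cause was not tested.

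Genes called at day 1 (13) numbered 6 with no filter, 7 without the trend, 149 with the replicate block, 2 with only the compared groups and 0 with the tubular covariate (limma, 1202 at an unadjusted p under 0.05), and between 3 and 218 when 1 library was left out, the latter without control replicate 5. The replicate block changed no call of a member. Genes called at day 5 (460) numbered 326 to 474 with 1 library left out. Between day 5 and day 1 (259), the count was 153 under the stricter filter (1 TPM reached by all libraries), 102 with the tubular covariate and 423 with only the compared groups, and 150 to 437 with 1 library left out, the highest without control replicate 5 and the lowest without day 5 replicate 2 (160 without replicate 3 and 164 without replicate 1). Of the members, 1 was called in that comparison, 0 with the tubular covariate (limma, 2 of 9 at an unadjusted p under 0.05), and 1 to 2 with a library left out, since *Lamc1* passed without day 1 replicate 1 (0.52), day 1 replicate 4 (0.56) or day 5 replicate 4 (0.54).

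Signs changed for uncalled values only. At day 1 these were *Lama4* (-0.036 with the replicate block, -0.044 to 0.20 with a library left out), *Lamb1* (0.21) and *Lamb2* (0.041) with the tubular covariate, and *Lamb2* with a library left out (-0.047 to 0.019). At day 5 it was *Lamb2* (-0.010 unscaled, -0.046 after quantile normalization). Between the days they were *Lama2* (-0.22), *Lamb1* (-0.075) and *Lamb2* (-0.020) with the tubular covariate and *Lamb2* (-0.00040) after quantile normalization. With a library left out, the log2 ratio Lama1/Lama5 at day 5 ranged from -0.0098 to 0.19, Lama2/Lama5 between the days from -0.023 to 0.17, and Lamb1/Lamb2 at day 1 from -0.15 to 0.030. Depth was unknown, so no counting error could be set for any gene.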
